A study of Mus musculus with 11 samples.

Results

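Resident macrophages of muscle and nerve, and the machinery with which they take up and present antigen, were followed through 37 genes in intact muscle spindles and in the extrafusal muscle beside them. The genes were taken by symbol from the table of 22384 genes, and all 37 were found there. They cover the receptor CSF1R and its ligands (3 genes), leukocyte and myeloid identity (10), complement (4), Fc receptors, TREM2 and their adaptors (5), scavenger and clearance receptors (7), chemokine receptors (2) and MHC class II antigen presentation (6). All 37 reached a mean normalized count of 5 over the libraries, and 34 had reads in every library.

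The libraries came from mice carrying *Piezo2*-EGFP-IRES-Cre and *Rosa26*-tdTomato, and both tissues share these alleles. Spindle bundles were dissected from the deep masseter, a jaw muscle rich in spindles, by their tdTomato fluorescence, which in this cross labels intrafusal fibers and capsule cells as well as sensory neurons. Muscle samples were extrafusal fibers next to the spindles, collected from the same animals. Spindles of mice 9, 10, 12, 13 and 16 gave 5 libraries. Muscle of these animals and of mouse 11 gave 6, and each library is named here by its tissue and mouse. Sections of this cross shown by the study came from adults, and the ages of the sequenced mice are not given in the sources used here. No cell was sorted, so a higher level may reflect more cells of a type or more RNA per cell, and the bulk data cannot tell these apart.

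Tissue macrophages are phagocytes that settle in an organ, renew themselves there and depend on CSF1R, which binds the cytokines CSF1 and IL-34. They clear dying cells and debris through scavenger receptors, opsonins such as C1q, and Fc receptors that signal through ITAM adaptors. Many also display peptides on MHC class II to T cells. In skeletal muscle they lie in the connective tissue around fibers and vessels, and peripheral nerve holds a population of its own.

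Total counts ranged from 8354260 in spindle 9 to 23430654 in muscle 16. Mitochondrially encoded genes held a share of 16.7% to 38.2% of a library, with the highest value in spindle 9. On the first principal component of log2 CPM, which held 48.7% of the variance, spindle 16 (2.3) and muscle 12 (-22.9) lay nearer to each other than to the remaining libraries of their tissues, which lay between 95.0 and 105.3 in spindle and between -80.7 and -72.9 in muscle. Spindle 9 stood apart on the second component, at 134.2 against -48.9 to 11.9 in all others. Odorant receptor genes, which belong to the olfactory epithelium, held 170.1, 227.9 and 195.9 CPM in spindle 10, 12 and 13, 144.4 in spindle 9 and 17.2 in spindle 16, against 9.22 to 63.3 in muscle. Counts are therefore also given without spindle 10, 12 and 13, where these reads were most frequent. That fit kept spindle 9, at 144.4 CPM, and spindle 16. It therefore does not remove these reads, and with fewer spindle libraries it can also lose calls. As a check of the tissues, all 6 intrafusal fiber genes listed were called higher in spindle, with a median log2 fold change of 8.84, as were 6 of 7 perineurial and capsule genes, and 5 of 6 fast extrafusal fiber genes were called lower. The sixth, the fast myosin *Myh4*, was called higher in spindle (log2 fold change 3.47, standard error 0.46), with 3550 to 5750 against 177 to 1020 in muscle.

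Macrophage genes were higher in spindle nearly throughout. At a mean normalized count of at least 5, an adjusted p of at most 0.05 by edgeR and an absolute log2 fold change of at least 1, 31 of the 37 genes were called higher in spindle (83.8%), against 11% of all genes tested. None was called lower, by edgeR, DESeq2 or limma-voom, against 1.8% of all genes by edgeR, and no fold change was negative. The log2 fold changes ran from 0.70 for *Il34* to 3.79 for *Cx3cr1*, with a median of 1.52, beside a median of 0.29 over all 22384 genes. In 21 genes every spindle library lay above every muscle library, which held for 9.15% of all genes. Without a minimum fold change 35 passed, against 15.8% of all genes. The shares of all genes called include genes that could not be called, since 15967 of the 22384 reached a mean normalized count of 5. *Csf1*, *Il34*, *Cd163* and *Mertk* passed on adjusted p but had log2 fold changes under 1, while *Ccr2* and *Cd86* exceeded 1 and missed on adjusted p.

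**Figure D1:**
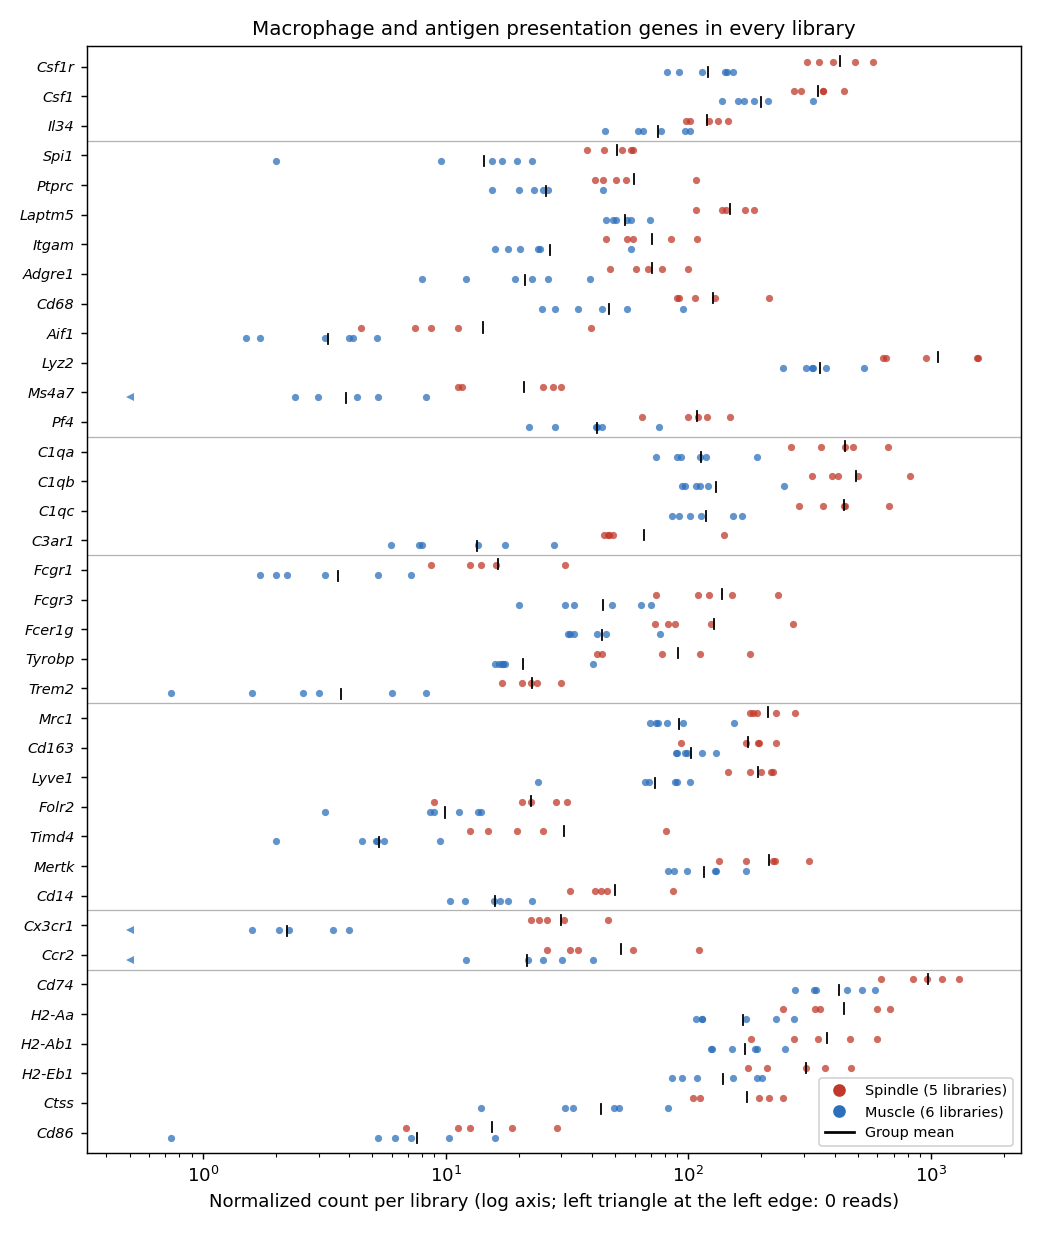
Normalized count of each of the 37 genes in every library, on a log axis, with 5 spindle libraries in red, 6 muscle libraries in blue and a black bar at each group mean. Gray lines separate the roles, and blue triangles at the left edge mark *Ms4a7* and *Ccr2* in muscle 10 and *Cx3cr1* in muscle 16, which had 0 reads. The red points lie to the right of the blue points without overlap in 21 genes.

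**Figure D2:**
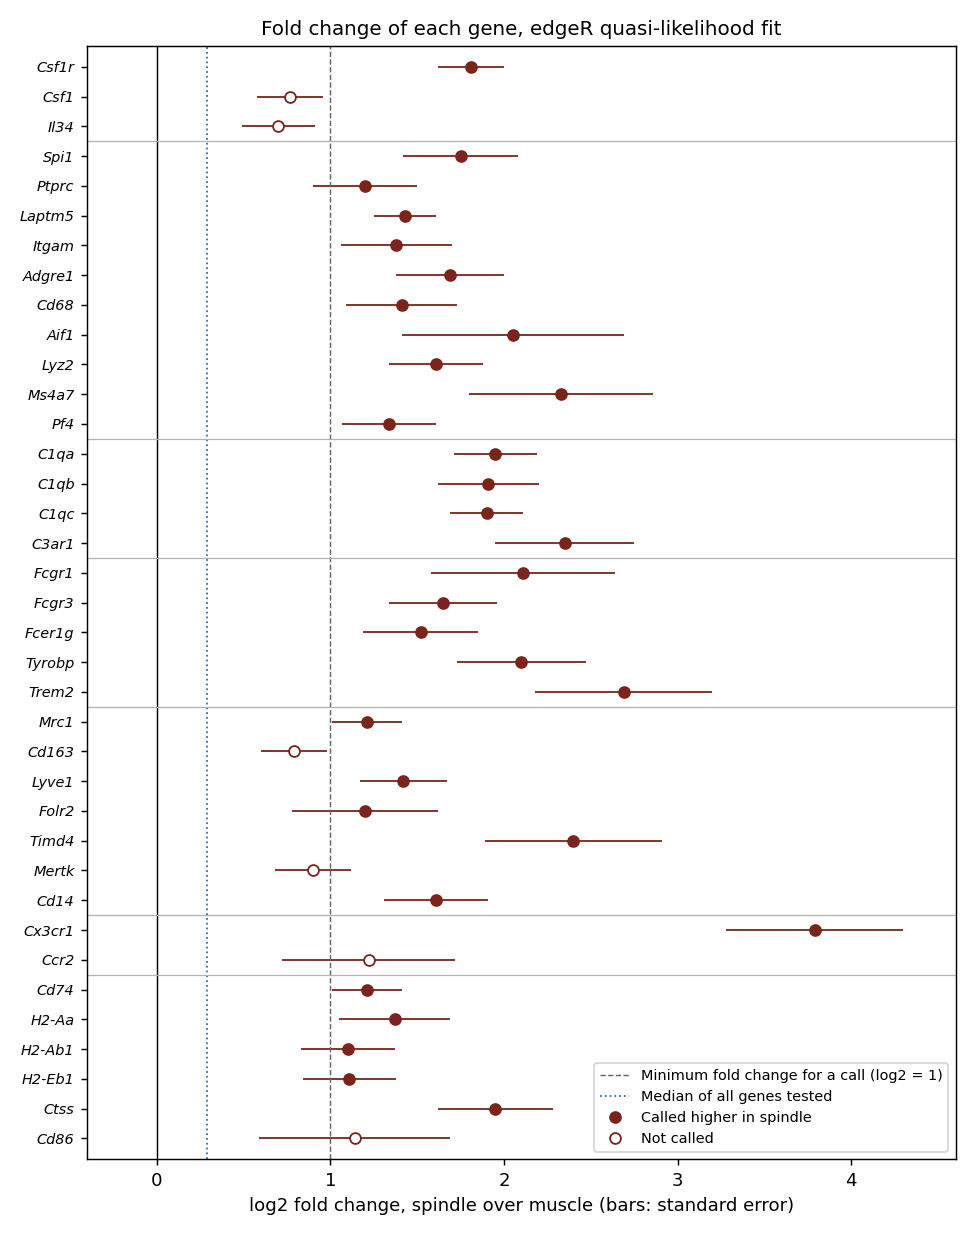
Log2 fold change of spindle over muscle for the same genes, with standard errors, from the edgeR quasi-likelihood fit over all genes. Filled points are the 31 genes called higher and open points the 6 that were not, the dashed line marks a log2 fold change of 1 and the dotted line the median of all genes, 0.29. All points lie to the right of the dotted line, and *Cx3cr1* lies farthest, at 3.79.

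The lineage receptor rose, while its ligands stayed below the fold threshold. *Csf1r* (chr18:61100598-61132149, plus strand, GRCm38) had normalized counts of 574, 308, 345, 485 and 395 in spindle 9, 10, 12, 13 and 16, and the 6 muscle libraries ran from 81.4 to 153 with a median of 128. Every spindle library lay above every muscle library, and the means were 421.5 ± 108 (SD, n = 5) and 120.9 ± 29.96 (SD, n = 6). The log2 fold change was 1.81 (standard error 0.19, edgeR adjusted p = 5.95e-07). Exons of *Hmgxb3* overlap 15.1% of the exonic length of *Csf1r*, and the strand of the counting is not stated, so this share of its reads is uncertain.

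*Csf1*, the ligand made by many stromal cells, had 436, 273, 290, 358 and 359 in the spindle libraries and 138 to 327 in muscle (median 179). The tissues overlapped through muscle 13, and the log2 fold change was 0.77 (0.19, adjusted p = 0.00409). *Il34*, the second ligand, which is known from keratinocytes and neurons, had 102, 132, 97.7, 122 and 145 in spindle and 45.5 to 102 in muscle (median 71.0), with a log2 fold change of 0.70 (0.21, adjusted p = 0.0129). The ratio of *Il34* to *Csf1* within a library differed by -0.11 on the log2 scale between the tissues (exact permutation test over the libraries, two-sided, p = 0.775, adjusted p = 0.834 over 14 ratios). With library size alone as the scaling, which moves the median of all genes from 0.29 to 0.60, both ligands passed the threshold, at 1.06 and 1.02.

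All 10 genes of leukocyte and myeloid identity were called higher, with log2 fold changes of 1.20 to 2.33 and a median of 1.52. *Spi1* encodes PU.1, the transcription factor that sets the myeloid fate, and had 44.8, 38.3, 59.2, 53.5 and 58 in spindle against 2.0 to 22.6 in muscle (median 16.3). No library crossed between the tissues, and the log2 fold change was 1.75 (0.33, adjusted p = 0.000477). *Laptm5*, a lysosomal membrane protein of blood cells, had 186, 108, 143, 137 and 171 in spindle and 46.0 to 69.3 in muscle (median 53.0), a log2 fold change of 1.43 with the smallest standard error of the 10 (0.18). *Adgre1*, the F4/80 antigen by which mouse macrophages are recognized, had 100, 47.6, 61.0, 68.4 and 77.6 in spindle and 7.99 to 39.3 in muscle (median 21.0), also without overlap (log2 fold change 1.69, standard error 0.31).

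*Lyz2*, the lysozyme of myeloid cells, was the most abundant of the 37 genes per kilobase of exon. Its spindle libraries held 1550, 649, 636, 1560 and 953 normalized counts and its muscle libraries 246 to 528 (median 325), with a log2 fold change of 1.61 (0.27). Spindle 9 and spindle 13 were the highest, and spindle 12 lay above muscle 12, the highest of its group. Per kilobase, *Lyz2* averaged 812 in spindle, followed by *Cd74* at 576, *C1qb* at 450 and *C1qa* at 424, while *Ptprc* averaged 3.27. The length is that of all annotated exons of a gene merged, 18313 bases for *Ptprc*, so this ranking depends on the annotation.

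*Ptprc*, the pan-leukocyte phosphatase CD45, rose less evenly. Its spindle values were 41.4, 50.4, 55.6, 107 and 44.7, and muscle ranged from 15.5 to 44.5 (median 24.2). Muscle 12 lay above spindle 9, and the log2 fold change of 1.20 (0.30, adjusted p = 0.00447) fell below the threshold without spindle 13, to 0.89. *Itgam*, the integrin CD11b, had a log2 fold change of 1.38 (0.32) with muscle 12 at 58 above spindle 10 and spindle 13, but exons of *Gm49368* overlap 68.7% of its exonic length, so its count is uncertain. *Aif1*, the cytoskeletal protein IBA1, had 39.6 in spindle 9 against 4.48 to 11.2 in the other spindle libraries and 1.51 to 5.20 in muscle. Its log2 fold change was 2.05 (0.64, adjusted p = 0.0179), and without spindle 9 it was 1.27 with an edgeR adjusted p of 0.0914.

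The remaining identity genes were *Cd68*, the macrosialin of endosomes (1.41), *Pf4*, a chemokine of platelets and some resident macrophages (1.34), and *Ms4a7*, a membrane protein of macrophages (2.33). *Ms4a7* was scarce, with 101 reads over the spindle libraries and 27 over muscle, and muscle 10 held 0 reads, where 3 reads would have given a normalized count of 5.99.

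The opsonin C1q rose as a unit. Its subunits are encoded by *C1qa*, *C1qb* and *C1qc*, neighbors on the minus strand of chromosome 4 (chr4:136880129-136898803), and C1q starts the classical complement pathway and tags debris for uptake. The spindle libraries held 665, 265, 353, 477 and 443 for *C1qa*, and the muscle libraries 73.9 to 191 (median 102). For *C1qb* the spindle values were 815, 324, 391, 501 and 415 and muscle ran from 93.9 to 248 (median 110). For *C1qc* they were 670, 286, 360, 440 and 438, with 85.4 to 166 in muscle (median 107).

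In each subunit the lowest spindle library, spindle 10, lay above the highest muscle library, muscle 12. The log2 fold changes were 1.95 (0.24), 1.91 (0.29) and 1.90 (0.21), with edgeR adjusted p of 1.85e-05, 0.000224 and 2.45e-06, so that the subunits differed from each other by less than a standard error. Their sum was 2150 in spindle 9 and 875 in spindle 10, and 605 in muscle 12, while the rest of that group held 271 to 346. *C3ar1*, a receptor for the C3a fragment, had 140, 46.7, 44.8, 47.3 and 48.9 in spindle and 5.94 to 28.0 in muscle (median 10.8). Spindle 9 stood far above the rest, and the log2 fold change of 2.35 (0.40) was 1.91 without it.

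All 5 genes of Fc receptor and TREM2 signaling were called higher, with the highest median among roles of 3 or more genes (2.10). *Trem2*, a lipid-sensing receptor of macrophages and microglia, had 20.7, 22.4, 17, 29.9 and 23.8 in spindle and 0.743 to 8.28 in muscle (median 2.80), a log2 fold change of 2.69 (0.51, adjusted p = 0.000443). The spindle values lay close together, and 113 reads in spindle stood against 21 in muscle. *Tyrobp*, the ITAM adaptor DAP12 through which TREM2 signals, had 179, 43.9, 42.1, 112 and 77.6 in spindle and 16.0 to 40.4 in muscle (median 17.2). Here 5 muscle libraries lay between 16.0 and 17.6 and muscle 12 at 40.4 just below the lowest spindle library, and the log2 fold change was 2.10 (0.37).

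*Fcer1g*, the common gamma chain that Fc receptors use, had 269, 72.8, 87.9, 124 and 82.5 in spindle and 32.0 to 76.6 in muscle (median 38.1). Muscle 12 crossed above spindle 10, and the log2 fold change of 1.52 (0.33) was 1.07 without spindle 9. The activating receptors *Fcgr3* (1.65, standard error 0.31) and *Fcgr1*, the high-affinity IgG receptor CD64 (2.11, 0.53), rose without overlap. *Fcgr3* and the inhibitory *Fcgr2b* are close in sequence and reads that fit both were dropped by the authors' unique mapping, so their counts may be low in both tissues.

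Among the 7 scavenger and clearance genes 5 were called, and the spread between them was wide. *Mrc1*, the mannose receptor CD206, had 274, 180, 185, 229 and 192 in spindle and 69.5 to 154 in muscle (median 78.6), a log2 fold change of 1.21 (0.20, adjusted p = 0.000134) without overlap. *Lyve1*, a hyaluronan receptor of perivascular macrophages and of lymphatic endothelium, had 200, 145, 180, 218 and 224 in spindle and 24.0 to 102 in muscle (median 78.5), a log2 fold change of 1.42 (0.25). Lymphatic endothelial genes moved with it, since 4 of the 6 listed were called higher, with summed levels of 851.9 to 1110 in spindle and 320.2 to 496.4 in muscle. *Reln* (2.01), *Prox1* (1.53), *Ccl21a* (1.88) and *Mmrn1* (1.48) were those called, and the count was 2 without spindle 9, muscle 9, muscle 10 or muscle 13 and under limma-voom. Their part in the level of *Lyve1* was not tested.

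*Cd163*, the hemoglobin scavenger receptor, had 93.1, 195, 173, 229 and 194 in spindle and 88.6 to 130 in muscle (median 97.8). Spindle 9, which was the highest library for 23 of the 37 genes, was the lowest spindle library here and lay inside the range of muscle. The log2 fold change was 0.79 (0.19, adjusted p = 0.00376), under the threshold. *Mertk*, the kinase through which macrophages bind and engulf dying cells, also had its lowest spindle value in spindle 9, with 134, 314, 228, 173 and 224 in spindle and 82.2 to 172 in muscle (median 114). Its log2 fold change was 0.90 (0.22, adjusted p = 0.00337). Without spindle 9 it was 1.02 and without muscle 12 it was 1.04, both past the threshold.

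*Timd4*, a phosphatidylserine receptor of long-lived resident macrophages, had 81.0 in spindle 9 and 12.6 to 25.1 in the other spindle libraries, against 2.0 to 9.48 in muscle (log2 fold change 2.4, standard error 0.51, and 1.69 without spindle 9). *Cd14*, a coreceptor for bacterial lipopolysaccharide, also peaked in spindle 9, at 86.2 against 32.7 to 46.1, and rose by 1.61 (0.30) over the 10.4 to 22.8 of muscle. *Folr2*, the folate receptor beta of perivascular macrophages, had 20.7, 22.4, 8.97, 28.6 and 31.5 in spindle and 3.19 to 14.0 in muscle (median 10.2). Its call was the least secure of the 31, since the edgeR adjusted p of 0.0313 rose to between 0.0547 and 0.0735 in 6 of 11 fits that left out a library. Exons of *Gm10602* overlap 63.1% of its exonic length.

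**Figure D3:**
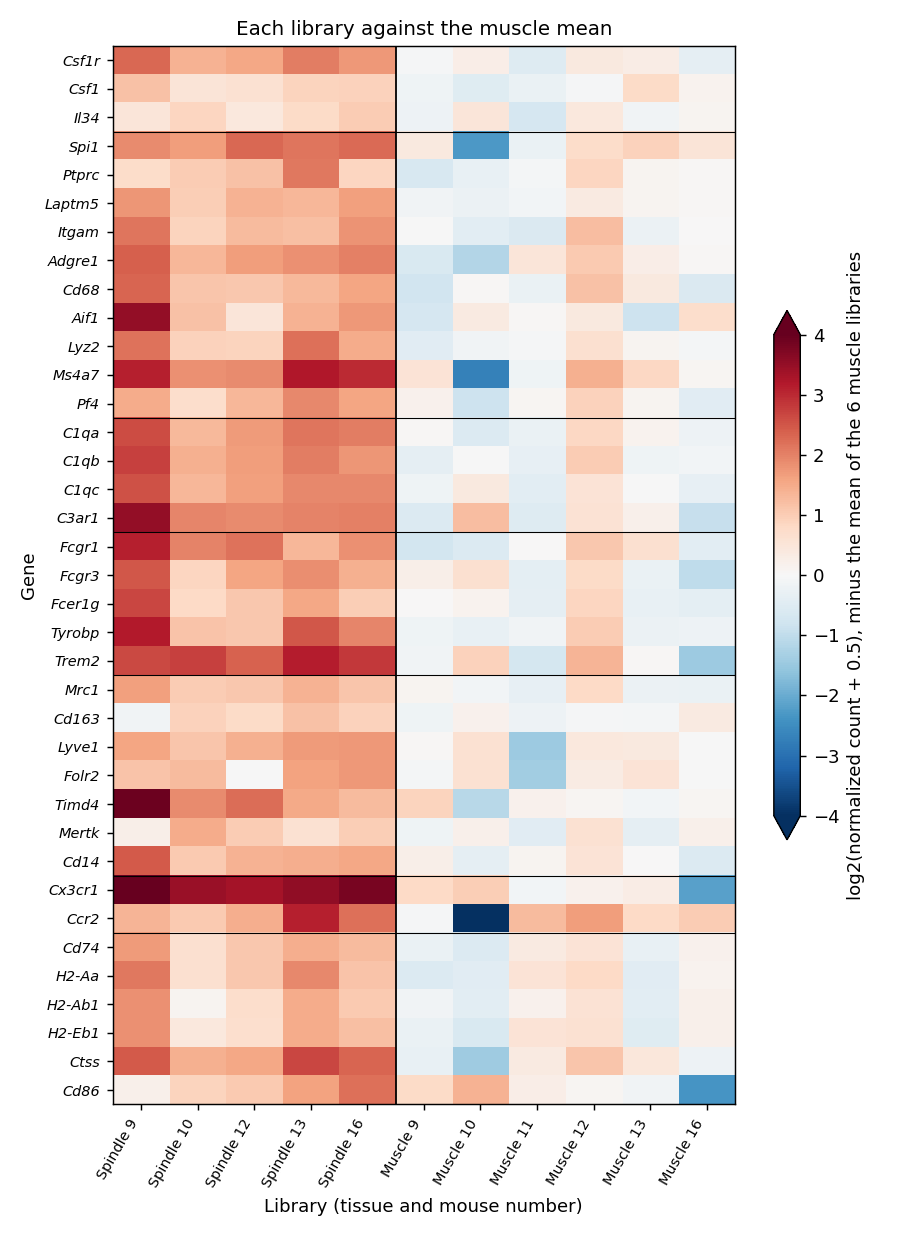
Each gene in each library as log2(normalized count + 0.5) minus the mean of that value over the 6 muscle libraries, with red for higher and blue for lower; rows follow the roles and the vertical line separates spindle from muscle. Spindle 9 is darkest for many myeloid genes and near white for *Cd163*, *Mertk* and *Cd86*, and muscle 12 is reddish in most rows, as the highest muscle library for 26 genes.

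Of all 37 genes *Cx3cr1* had the largest fold change. It encodes the receptor for fractalkine and marks microglia, nerve macrophages and nonclassical monocytes. The reads were 27, 26, 25, 21 and 44 in spindle 9, 10, 12, 13 and 16, which correspond to normalized counts of 46.5, 24.3, 22.4, 26.1 and 30.8. Muscle held 0 to 4 reads in each library, 13 in all, or 0 to 4.0 normalized counts (median 2.17).

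The lowest spindle library was thus several times the highest muscle library, and muscle 16 held 0 reads, where 3 reads would have given 2.23. The log2 fold change of *Cx3cr1* was 3.79 (0.51, edgeR adjusted p = 1.38e-05) and lay between 3.47 and 3.98 when a library was left out. Its ligand *Cx3cl1*, a membrane-bound chemokine of neurons and endothelium, was also called higher (1.61, standard error 0.32), with 23.6 to 81.0 in spindle and 11.3 to 27.9 in muscle.

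*Ccr2*, the receptor that brings monocytes out of the blood, behaved less evenly. Spindle held 32.7, 26.1, 35.0, 111 and 59.4 and muscle 0 to 40.4 (median 23.6), so that 3 spindle libraries lay inside the range of muscle. The log2 fold change was 1.22 (0.50, adjusted p = 0.0662). It passed with the mouse as a replicate block (1.43, adjusted p = 0.0131), under DESeq2 (1.34, adjusted p = 0.0392) and without muscle 12 (1.44, edgeR adjusted p = 0.0408). Of 4 monocyte markers tested none was called higher and *Nr4a1*, an orphan nuclear receptor that also responds to activity in muscle, was lower by 1.32.

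Antigen presentation by MHC class II rose by smaller folds. *Cd74*, the invariant chain that escorts class II molecules, had 1300, 624, 843, 1110 and 958 in spindle and 274 to 587 in muscle (median 394), a log2 fold change of 1.21 (0.20, adjusted p = 0.000244) without overlap. *H2-Aa* and *H2-Ab1*, the alpha and beta chains of the I-A molecule, had 674, 245, 331, 598 and 347 and 598, 181, 271, 465 and 341 in the spindle libraries. In muscle *H2-Aa* ranged from 107 to 271 (median 144) and *H2-Ab1* from 124 to 251 (median 170).

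For both chains spindle 10 lay inside the range of muscle. The log2 fold changes were 1.37 (0.32, adjusted p = 0.00641) for *H2-Aa*, 1.1 (0.27, adjusted p = 0.00681) for *H2-Ab1* and 1.11 (0.27, adjusted p = 0.00593) for *H2-Eb1*, the beta chain of the I-E molecule. Without spindle 9 *H2-Ab1* fell to 0.86 and *H2-Eb1* to 0.91, under the threshold. *H2-Ab1* also lost its call without spindle 13, muscle 10 or muscle 13, and *H2-Eb1* without muscle 10 or muscle 13, at values of 0.99 or just under 1. With the mouse as a replicate block *H2-Aa* had a log2 fold change of 1.47 (0.43) and missed the threshold at an edgeR adjusted p of 0.0595. The sum of the 3 chains was 1740, 602, 812, 1430 and 993 in spindle and 367, 324, 610, 723, 333 and 516 in muscle 9, 10, 11, 12, 13 and 16.

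*Ctss*, cathepsin S, which trims the invariant chain, rose more than the chains, with 214, 104, 112, 246 and 196 in spindle against 14.0 to 82.8 in muscle (median 41.5) and a log2 fold change of 1.95 (0.33, adjusted p = 0.000289). *Cd86*, a costimulatory ligand for T cells, was low, with 6.89 to 28.7 in spindle and 0.743 to 16.0 in muscle, and was lower in spindle than in muscle in mice 9 and 10. Its log2 fold change was 1.14 (0.55, adjusted p = 0.102).

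RefSeq promoter windows of build GRCm38.p6, from 250 bases before a start to 50 after, were searched for 26 of the 37 genes, which leaves *Csf1r*, *Il34*, *Spi1*, *Adgre1*, *C1qa*, *Tyrobp*, *Lyve1*, *Cd14*, *Cd74*, *H2-Ab1* and *Cd86*. Class II genes are known to carry an X box followed by a Y box before the start, bound by the RFX and NF-Y complexes under the coactivator CIITA. The stretches upstream of *H2-Aa* and *H2-Eb1*, from 150 bases to 1 base before the start, are shown because these promoters hold the letters GCAACT of the X box and CTGATTGG of the Y box, in capitals. They lie at chr17:34287824-34287973 on the minus strand and chr17:34305717-34305866 on the plus strand.
H2-Aa: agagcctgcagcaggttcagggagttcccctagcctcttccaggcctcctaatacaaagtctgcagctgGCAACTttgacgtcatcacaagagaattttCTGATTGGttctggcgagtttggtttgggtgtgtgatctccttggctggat
H2-Eb1: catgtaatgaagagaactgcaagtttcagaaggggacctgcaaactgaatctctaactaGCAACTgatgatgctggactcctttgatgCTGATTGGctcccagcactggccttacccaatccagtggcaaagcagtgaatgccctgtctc

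The X letters began 81 and 91 bases before the start of *H2-Aa* and *H2-Eb1* and the Y box 51 and 62 bases before it, a distance of 30 and 29 bases. Searched on both strands, GCAACT occurred in the windows of 12.4% of 27025 genes and CTGATTGG in those of 4.7%. In this order on the strand of the gene, with 10 to 40 bases from start to start, they occurred in 4 genes of 27025 (0.0148%), the other 2 being *H2-Eb2* and *Narf*. The letters were chosen after these windows had been read, and a match is a description of the sequence only.

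The same windows were searched on both strands for GAGGAAGT, a form of the site of PU.1, whose gene *Spi1* was itself higher in spindle. It was found in 3 of the 26 genes, *C1qc*, *Ctss* and *Pf4*, and in 3.69% of all 27025 genes. The shorter core GAGGAA, which lies within it, was found in 14 of the 26 and in 31.3% of all genes. The upstream stretches of *C1qc* (chr4:136893052-136893159, minus strand) and *Pf4* (chr5:90772375-90772434, plus strand) are shown because they carry the longer form, here in capitals as its reverse complement on the strand of the gene; in *Ctss* the match runs across the start.
C1qc: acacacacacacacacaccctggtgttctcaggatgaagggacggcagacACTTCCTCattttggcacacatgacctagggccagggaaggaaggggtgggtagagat
Pf4: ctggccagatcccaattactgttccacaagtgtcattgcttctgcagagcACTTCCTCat

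Within mice the direction was nearly uniform. Comparing spindle with muscle of the same animal, 36, 36, 34, 37 and 37 of the 37 genes were higher in spindle in mice 9, 10, 12, 13 and 16. The share and median over all genes were not computed for each mouse. In the fit over all libraries the median of all genes was 0.29, so part of this direction is shared with other genes. The exceptions were *Cd86* in mice 9 and 10, and *Cd68*, *Folr2* and *Ccr2* in mouse 12, where the log2 differences were -0.09, -0.33 and -0.20. The size of the difference varied between animals, with a median over the genes of 2.26 in mouse 9, 1.19 in mouse 10, 0.52 in mouse 12 and 1.76 in mice 13 and 16. Mouse 12 gave the muscle library with the highest sum of the 37 genes, 4201 normalized counts, where the rest of that group held 2360 to 2736, while the spindle libraries ran from 5275 to 10780.

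**Figure D4:**
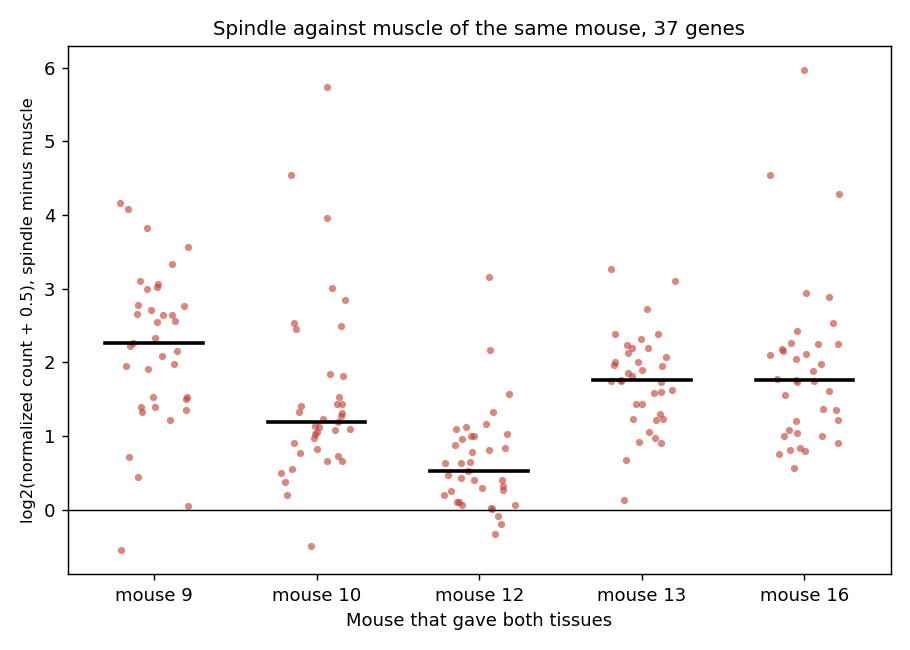
Difference between spindle and muscle of the same mouse in log2(normalized count + 0.5), with a point for each of the 37 genes and a black bar at the median. The medians are 2.26, 1.19, 0.52, 1.76 and 1.76, and mouse 12 has the lowest, with 3 genes under 0.

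The 3 C1q subunits, *Csf1r* and *Tyrobp* rose by similar folds, but not all genes kept their proportion to *Csf1r*. Within each library the reads of 13 genes were set against those of *Csf1r* on the log2 scale (0.5 added to each), which removes the scaling between libraries, and the tissues were compared with an exact permutation test. The test was two-sided, with adjusted p over 14 ratios, the ratio of the ligands included. The ratio of *Cx3cr1* was -3.60, -3.64, -3.92, -4.18 and -3.67 in spindle and -7.95 to -4.84 in muscle, a difference of 1.98 (exact permutation p = 0.00649, adjusted p = 0.0455) that was positive in 5 of 5 mice. Its size depends on the amount added, since with 2 in place of 0.5 the difference was 1.24 (adjusted p = 0.0303).

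In the other direction, the ratio of *Cd163* was -2.61, -0.66, -0.99, -1.08 and -1.03 in spindle and -0.64 to 0.51 in muscle. The difference was -1.07 (exact permutation p = 0.00216, the smallest that these libraries allow, adjusted p = 0.0303), negative in all 5 mice, and -0.74 without spindle 9. With any library but muscle 11 left out, the adjusted p of both ratios was 0.0556 or 0.0667, and without muscle 11 it was 0.037. Fewer arrangements are possible in each of these tests than with all libraries. Within mice the smallest p that the design allows is 0.0625, and both ratios had it. The ratios of *Lyve1* (-0.48 within mice) and *Folr2* (-0.82) to *Csf1r* had it too, and were negative in all 5 mice.

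*Trem2* (0.98, exact permutation p = 0.0346), *Mrc1* (-0.55, p = 0.0216) and *H2-Ab1* (-0.76, p = 0.0368) did not pass after adjustment, at adjusted p of 0.103, 0.101 and 0.103. *C1qa* differed by 0.16 and *Tyrobp* by 0.17 relative to *Csf1r* (exact permutation p = 0.552 and 0.589). The other 6 ratios to *Csf1r*, those of *Ccr2*, *Cd74*, *Lyve1*, *Folr2*, *Timd4* and *Ptprc*, had differences of -0.64 to 0.34 and adjusted p of 0.182 to 0.939.

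**Figure D5:**
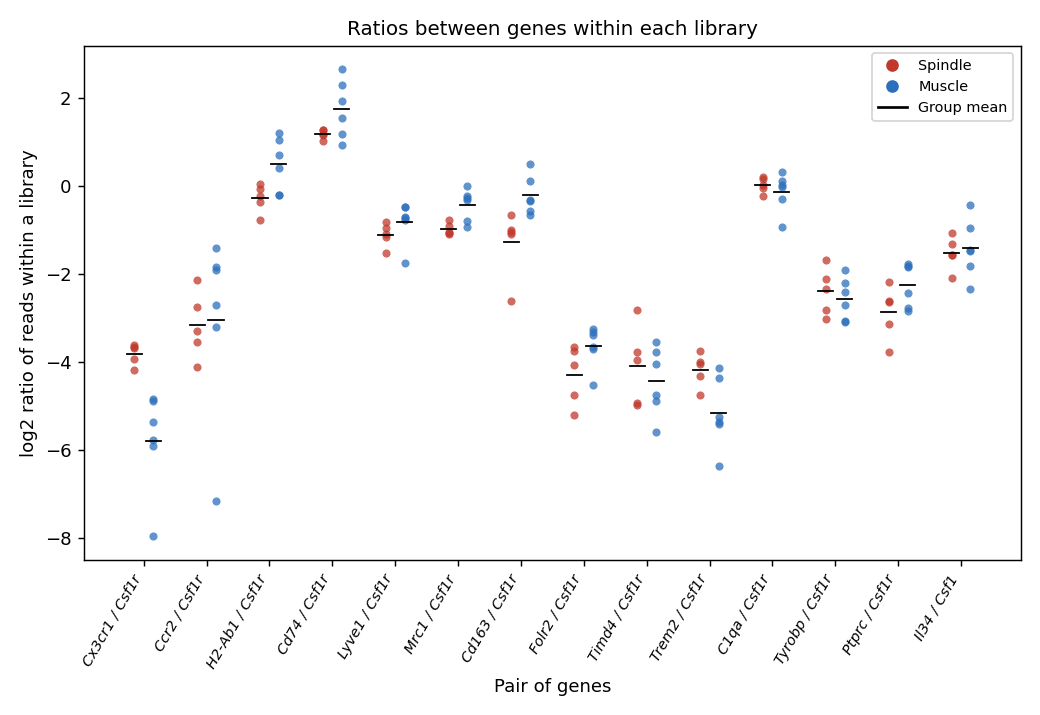
Log2 ratio of the reads of a gene to those of *Csf1r*, and of *Il34* to those of *Csf1*, within each library, with spindle in red, muscle in blue and black bars at the group means. The spindle points of *Cx3cr1* (-4.18 to -3.60) lie above all muscle points (-7.95 to -4.84), and those of *Cd163* (-2.61 to -0.66) lie below all muscle points (-0.64 to 0.51).

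Further genes of the same pathways, from lists that do not hold the 37 genes, rose in some groups and not in others. In complement, 6 of 15 tested genes were called higher (median 1.04), among them *C2*, the protease of the classical convertase (3.63, 58.7 to 136 in spindle against 4.79 to 18.0 in muscle), and the C1 inhibitor *Serping1* (1.88). *C4b*, *C1s1* and *C5ar1* were also called, and *C3* itself had a log2 fold change of 0.20. Fibroblasts also make several of these proteins, and 4 of 8 fibroblast genes were called higher, with summed levels of 28420 to 49100 in spindle and 8673 to 35560 in muscle, a part that was not tested.

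In myeloid signaling and the phagocyte oxidase, 11 of 16 were called higher (median 1.30), among them the oxidase subunits *Cybb* (1.74) and *Ncf1* (1.42). Of 14 further Fc, lectin-like and inhibitory receptors 8 were called (median 1.58), among them *Clec12a* (2.70) and *Cd33* (1.84), while *Sirpa*, the receptor for CD47, had 0.90. Of 11 genes known from microglia and nerve-associated macrophages 7 were called (median 1.88). *Tmem119* led, at 164 to 405 in spindle against 14.0 to 22.4 in muscle (3.65), and *Slco2b1*, an organic anion transporter, had 0.89. That count was 4 without spindle 10, 12 and 13.

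*Tmem119* is also made by bone-forming and other mesenchymal cells, and *P2ry12* (1.88), *Gpr34* (2.14) and *Siglech* (2.30), purinergic, lysophospholipid and sialic acid receptors, were called as well. Schwann cell genes moved with this list, since 7 of 8 were called higher, with sums of 10530 to 19710 in spindle and 1549 to 5433 in muscle. Of 12 perivascular macrophage genes 4 were called (median 1.13), led by *F13a1*, a clotting factor chain (1.27), *Cbr2*, a reductase (1.53), and the ficolin *Fcna* (1.88). That count was 8 without muscle 12, 7 under DESeq2 and 2 with the median gene set to 0.

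Presentation genes outside the 6 class II genes mostly did not pass. Of 12 further class II genes 2 were called higher (median 0.78), *H2-DMb1*, a chain of the peptide exchange factor (1.32), and the ubiquitin ligase *March1* (1.52). The RFX subunits *Rfxap* (-0.58) and *Rfx5* (-0.86) had negative values that missed the fold threshold, and *Ciita* had 1.01 (standard error 0.45, edgeR adjusted p = 0.0792). Of 12 class I genes edgeR called none, and neither did DESeq2 or limma-voom, while 4 had an unadjusted p under 0.05 and 3 passed edgeR without a minimum fold change, with a median of 0.26. *B2m*, the light chain of class I molecules, had 0.73 (0.17), *H2-T23*, a nonclassical class I chain, 0.63 (0.16), and *Tapbp*, which loads peptide, 0.33 (0.12).

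Myeloid transcription factors other than *Spi1* moved in both directions. Of 12 tested (median 0.16), *Runx1* (1.82) was called higher and 3 were called lower, among them *Maf* and *Nr4a1*, with log2 fold changes of -1.18 and -1.32. In 9 alternatives, without muscle 12 among them, 2 or 3 were called higher. *Cebpa* (0.72, standard error 0.21) and *Ikzf1* (1.11, 0.46) were not called, although every spindle library lay above every muscle library. *Maf* averaged 1197 ± 185.9 (SD, n = 5) normalized counts in spindle and 2718 ± 587.4 (SD, n = 6) in muscle, and *Maf* is known from other cells as well. Of 16 lysosomal genes *Gpnmb*, a transmembrane glycoprotein of phagocytes, was called (1.88), with a list median of 0.29, equal to that of all genes, *Lgmn* at 0.81 and *Creg1* at -0.75. Of 13 chemokine genes 3 were called higher (median 0.79), *Cxcl14* (2.01), *Cx3cl1* and *Ccl9* (1.39).

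Most listed genes of other leukocytes gave few reads. The T cell genes *Cd3e* and *Cd3g* were called higher (2.58 and 3.95) on 58 and 64 reads in spindle and 13 and 6 in muscle. With the B cell gene *Pax5* (3.36, 94 and 12 reads), they lost their calls without spindle 10, 12 and 13 and with edgeR's filter on low counts. The first of these fits kept only spindle 9 and 16. The filter drops genes with few reads before the fit, so a call lost there can mean that the gene was not tested. Under limma-voom 1 listed T cell gene and no listed B cell gene was called. The part of the odorant receptor reads that moved with these libraries was not tested. The summed level of the 8 listed T cell genes was 37.05 to 129.2 in spindle and 31.94 to 49.67 in muscle. That of the 5 listed B cell genes was 10.49 to 51.7 and 4.0 to 21.7. Of these, 4 and 1 reached the mean normalized count of 5 that a call needs. The uncalled T cell genes of the list went both ways, at 3.48 (*Trbc2*), 2.06 (*Cd3d*), 0.91 (*Cd2*), 0 (*Lck*), -0.28 (*Cd247*) and -0.61 (*Cd4*). So did those of the B cell list, at 3.06 (*Ms4a1*), 0.09 (*Cd79a*), -0.3 (*Cd79b*) and -1.26 (*Fcer2a*). Outside the list, the T cell genes *Zap70* (3.91), *Cd28* (1.95), *Ctla4* (1.62) and *Icos* (1.79) were also called higher. Their mean normalized counts were 22.6, 49.7, 9.33 and 8.88, and *Zap70* and *Cd28* had every spindle library above every muscle library. Other T cell genes outside the list were not surveyed. Of the dendritic cell genes, which share MHC class II with macrophages, 2 of 7 were called, *Clec9a* (1.40) and *Cd209a* (1.59), with sums of 193.7 to 337.2 and 102.2 to 201.2. That count was 1 with the mouse as a replicate block, under limma-voom and without spindle 13 or muscle 9, 10, 13 or 16, and 0 without spindle 10, 12 and 13.

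Neither NK cell nor neutrophil genes were called by edgeR, among 2 and 3 tested, with 1 of each at an unadjusted p under 0.05. DESeq2 called none. Of these, 0 NK cell and 2 neutrophil genes reached a mean normalized count of 5, so no NK cell gene could be called. A neutrophil gene was called by limma-voom and in edgeR fits with the mouse as a replicate block, with the filter on low counts, with library size alone, without spindle 12 and without muscle 10. Their sums were 0 to 22.4 and 20.6 to 56.9 in spindle, and 0 to 4.14 and 7.76 to 34.0 in muscle. Of 7 mast cell genes *Mcpt4* was called (1.25), a call lost in 7 of 11 fits that left out a library. None of 5 erythroid genes (median -0.08) and none of 9 endothelial genes (median 0.13) was called by edgeR, with 0 and 1 of them at an unadjusted p under 0.05. *Cd8a*, *Nkg7*, *S100a8* and *Ly6g*, defining genes of these cells, were not analysed here. The part of other leukocytes in the levels of *Ptprc*, *Ccr2* and the class II genes was not tested.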

How the data were processed

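Polyadenylated RNA of 5 spindle and 6 muscle samples was sequenced single-end. Reads were aligned to GRCm38 (STAR 2.4.2a, within UTAP). The authors deposited raw counts of uniquely placed reads for each gene that had 5 or more in any library; DESeq2 1.16.1 made their further values. Of the table, 22 value columns (authors' normalized values, fold changes and p-values) were not used. The 37 genes and the gene lists were chosen with earlier results of these data known. Counts were tested with edgeR 4.0.16 in R 4.3.3 (TMM scaling, robust quasi-likelihood test, Benjamini-Hochberg adjustment over 22384 genes), with the study's thresholds and no term for the mouse. Normalized counts are counts divided by each library's effective size relative to the geometric mean. Standard errors were derived from the fold change and the F statistic of its test. Total counts of 8354260 to 23430654 per library limit the precision of genes with few reads, and limits from 0 reads cover counting error only. Values are mean ± SD over separate mice.

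The named genes are all 37, in each pathway list the 3 with the smallest adjusted p, and in each marker list any called gene; further genes were named after their values were seen, and some that meet the rule are not reported here. Fits with DESeq2 1.42.0, limma 3.58.1 voom, other scalings, a filter on low counts, a replicate block and left-out libraries were alternatives. The fit was tested on simulated counts. Mouse numbers pair the tissues of 1 animal. Deviations from the group means over 12557 genes correlated at 0.08, 0.31, 0.17, 0.26 and 0.29 in mice 9, 10, 12, 13 and 16. The correlation within the animal was the best match in mice 10, 12, 13 and 16, but not in mouse 9. No library copied another (smallest chi-square per gene 23.0). Positions are from GENCODE vM21 by symbol, and promoter sequences from RefSeq. Plots used matplotlib 3.10.9 (Python 3.11.15). Planned protein sequences were not used here.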

Additional observations from a re-analysis of the deposited data

Results flagged for a closer look

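In 13 of 74 groups, each a gene in the libraries of a tissue, the extreme library stood farther from its nearest neighbor than Dixon's 95% value allows. Chance flags about 1 in 20 independent groups. These groups share the same libraries, so an unusual library can be flagged for many genes and the 13 cannot be read against that rate. Muscle 12 was the high library in 7 of them, with normalized counts of 44.5 for *Ptprc*, 58 for *Itgam*, 191 for *C1qa*, 248 for *C1qb*, 76.6 for *Fcer1g*, 40.4 for *Tyrobp* and 154 for *Mrc1*. Spindle 9 was the high library in 5, with 39.6 for *Aif1*, 140 for *C3ar1*, 269 for *Fcer1g*, 81.0 for *Timd4* and 86.2 for *Cd14*. Spindle 13 stood out for *Ptprc*, at 107 against 55.6 in the next library.

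With spindle 9 and muscle 12 both left out, an alternative chosen after the values were seen, 31 of the 37 genes were again called higher. *Aif1* and *H2-Ab1* lost their calls in that fit, and *Mertk* and *Ccr2* gained them.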

How the results depend on the processing

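No fold change of the 37 genes turned its direction in 24 alternatives (886 values), and 31 values fell below the thresholds and 18 rose past them. The count of genes called higher, 31, lay between 28 and 33 when a library was left out. It was 25 with the median gene set to 0, 37 with library size alone, 32 under DESeq2, 30 under limma-voom, 29 with a filter on low counts, 31 without spindle 16 and muscle 12, and 29 without spindle 10, 12 and 13. The filter drops genes with few reads before the fit, and none of the 37 genes that it kept lost a call. With the mouse as a replicate block 29 were called, against 30 without the block on the same 10 libraries, a setting added after the data were seen. Of the 31, *Folr2* was not called on these 10 libraries with the block (0.93, edgeR adjusted p = 0.129) or without it (0.99, 0.0723). The block itself took the calls of *Aif1* (1.75, adjusted p = 0.0838) and *H2-Aa* (1.47, 0.0595), gave *Ccr2* one and changed no other call of the 37. Across all genes, the count called lower, 403, was 140 with library size alone, 1084 with the median gene at 0 and 3349 without a minimum fold change, and the count called higher, 2470, was 1576 without spindle 10, 12 and 13. Leaving out a library gave 2132 to 2716 higher and 327 to 535 lower. Among the 14 ratios none reversed, 26 of 210 values lost the threshold and *Lyve1* to *Csf1r* passed it without muscle 11 (-0.48, adjusted p = 0.037). Few reads limit *Aif1*, *Ms4a7*, *Fcgr1*, *Trem2*, *Cx3cr1* and *Cd86*.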
